A study of Mus musculus with 2 samples.

Results

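The 5 genes described here are Ifit1, Ifit2, Ifit3, Ifit3b and Rsad2, taken by name from the 52636 genes counted in each of 2 single-cell RNA libraries. All 5 had at least 1 transcript in both libraries. Each library came from the intestine of 1 E18.5 mouse embryo on the C57BL/6 background, dissociated with papain and profiled with the 10x Chromium droplet method, which counts transcript ends as unique molecular identifiers (UMIs). The first embryo, Casp8-mutant for short, was Casp8 C362A/C362A Mlkl -/-: both copies of Casp8 encode a caspase-8 whose active-site cysteine is alanine. The second, Mlkl-null for short, was Mlkl -/- with no Casp8 allele named. By these labels both were without Mlkl, the executor of necroptosis, and the comparison concerns caspase-8 catalytic activity on that background. With 1 embryo per genotype there was no test, cells were not treated as replicates, and a genotype effect cannot be told apart from a difference between these 2 embryos. All intervals are 95% intervals and cover counting error only.

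Interferon-induced proteins with tetratricopeptide repeats (IFITs) are cytoplasmic antiviral proteins. IFIT1 binds viral RNA whose cap lacks a host methyl mark and keeps it from being translated, and the related IFIT2 and IFIT3 proteins bind to other IFITs. Ifit3b is a mouse copy of Ifit3. Rsad2 encodes viperin, a radical SAM enzyme that makes a chain-terminating nucleotide from CTP. These genes are silent or low in most resting cells, and are switched on when interferon receptors activate transcription factors that bind interferon-stimulated response elements, or when sensors of foreign nucleic acid activate IRF3. In the intestine, epithelial cells are known for answering type III interferon in particular.

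The 4 Ifit members lie together on chromosome 19 within 99316 bp, and Rsad2 lies on chromosome 12. Their identifiers in the files are ENSMUSG00000034459 (Ifit1), ENSMUSG00000045932 (Ifit2), ENSMUSG00000074896 (Ifit3), ENSMUSG00000062488 (Ifit3b) and ENSMUSG00000020641 (Rsad2). In GENCODE M21, on the mm10 build, Ifit2 spans chr19:34550694-34576419, Ifit3 chr19:34583531-34588731, Ifit3b chr19:34607970-34613401 and Ifit1 chr19:34640871-34650009, all on the plus strand and all protein-coding. Rsad2 spans chr12:26442746-26456452 on the minus strand. Ifit1bl1 and Ifit1bl2, which are Ifit1-like genes, lie between the members on the minus strand. The annotated starts of Ifit1bl2 and Ifit1 are 128 bp apart and face away from each other. The sequences upstream of the members are shown because the genes were high together, and because Ifit1 and Ifit1bl2 share the bases between them. The core of the interferon-stimulated response element was searched as GAAA, any 2 bases, GAAA on both strands, in the 250 bases before each start in the RefSeq promoter table for GRCm38.p6, and matches are in capitals. The motif was chosen after these sequences had been looked at. Upstream of Ifit3, at chr19:34583279-34583528, and of Ifit3b, at chr19:34607707-34607956, the plus strand reads as follows. For Ifit1 the bases between the Ifit1bl2 and Ifit1 starts are given, chr19:34640744-34640870 on the plus strand. For Rsad2 the window is chr12:26456453-26456702 on the minus strand.
Ifit3: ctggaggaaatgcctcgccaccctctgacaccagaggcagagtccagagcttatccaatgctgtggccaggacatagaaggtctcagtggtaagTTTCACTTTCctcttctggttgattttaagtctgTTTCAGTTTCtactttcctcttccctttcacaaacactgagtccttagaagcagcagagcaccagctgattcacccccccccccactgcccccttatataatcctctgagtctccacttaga
Ifit3b: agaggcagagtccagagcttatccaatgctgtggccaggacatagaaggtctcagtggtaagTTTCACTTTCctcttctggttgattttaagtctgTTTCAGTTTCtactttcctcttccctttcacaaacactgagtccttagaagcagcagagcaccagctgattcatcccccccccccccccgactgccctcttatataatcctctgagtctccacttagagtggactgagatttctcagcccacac
Ifit1 and Ifit1bl2: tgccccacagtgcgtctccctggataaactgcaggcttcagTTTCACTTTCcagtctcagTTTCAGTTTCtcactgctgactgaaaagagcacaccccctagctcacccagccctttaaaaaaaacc
Rsad2: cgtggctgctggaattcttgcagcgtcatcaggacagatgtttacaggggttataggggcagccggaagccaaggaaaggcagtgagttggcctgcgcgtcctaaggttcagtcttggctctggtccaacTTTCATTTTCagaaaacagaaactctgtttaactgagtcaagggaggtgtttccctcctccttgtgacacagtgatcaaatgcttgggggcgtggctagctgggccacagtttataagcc

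The windows of Ifit3, Ifit3b and Ifit1 each held 2 matches and that of Rsad2 held 1, while neither window listed for Ifit2 held any. A match was thus found for 4 of the 5 members, against 936 of the 27025 genes in the table (3.46%) and 8 of 26 other interferon-induced genes that could be matched (30.8%). The Ifit3 and Ifit3b windows were identical at 216 of 218 aligned bases. Because Ifit1 and Ifit1bl2 diverge from the same stretch, its 2 matches fell in the windows of both. Ifit1bl1 held 1 match and Cmpk2, the gene next to Rsad2, held none. A match of letters describes the sequence and does not show that a factor binds it.

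The libraries held 1014 barcodes and 2804929 UMIs for the Casp8-mutant embryo, and 1478 barcodes and 6290008 UMIs for the Mlkl-null embryo. After filtering, 873 Casp8-mutant and 1435 Mlkl-null cells remained, with medians of 1957 and 3707 UMIs per cell. The labels name whole intestine in one field and small intestine in another. Mlkl had 13 UMIs in the Casp8-mutant library and 1 in the Mlkl-null library, so Mlkl transcripts were not absent from the library labelled Casp8 C362A/C362A Mlkl -/-. The deleted stretch of Mlkl is not given, so this count does not check the label. Casp8 had 235 and 401 UMIs, and a count does not read its point mutation. Xist had 8478 UMIs in the Casp8-mutant library and 2 in the Mlkl-null library, so the embryos differed in sex as well as in genotype. The libraries had 2 barcode sequences in common. Clusters were named from marker genes, and 591 Casp8-mutant and 1184 Mlkl-null cells were epithelial-like. Clusters 1 to 4 of these held almost only Casp8-mutant cells and clusters 5 to 11 only Mlkl-null cells, so the libraries stood apart in more than the members.

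All 5 members were far higher in Casp8-mutant than in Mlkl-null epithelial-like cells. Ifit1 had 1294 UMIs in Casp8-mutant cells and 459 in Mlkl-null cells, which is 635 (601 to 671) and 86.3 (78.6 to 94.5) UMIs per 1000000 UMIs of the class (CPM). The ratio was 7.36 (6.62 to 8.21). Rsad2 had 655 and 72 UMIs, or 322 (297 to 347) CPM in Casp8-mutant and 13.5 (10.6 to 17.0) CPM in Mlkl-null cells, a ratio of 23.6 (18.6 to 30.8). These 2 genes were the best covered of the members in both libraries. Ifit3 had 271 UMIs in Casp8-mutant cells against 26 in Mlkl-null cells, 133 against 4.89 CPM, with a ratio of 26.8 (18.2 to 42.4). Ifit2 had 203 against 6 UMIs, 99.7 against 1.13 CPM, and a ratio of 81.8 (39.9 to 244). Ifit3b had 173 UMIs in Casp8-mutant cells and 3 in Mlkl-null cells, so its ratio of 130 (50.7 to 738) is loosely bounded above. Fewer transcripts per cell and fewer transcribing cells cannot be told apart from the summed values alone.

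The 5 log2 ratios were 2.88 for Ifit1, 6.35 for Ifit2, 4.74 for Ifit3, 7.02 for Ifit3b and 4.56 for Rsad2. All 5 members were at least 4-fold higher in Casp8-mutant epithelial-like cells, a size reached by 4.01% of the 13975 genes with at least 20 UMIs. At 10-fold the count was 4 of 5, all except Ifit1, against 1.55% of those genes, while 4.63% were at least 4-fold lower and no member was. Their median log2 ratio was 4.74, beside −0.16 for all genes measured. From the highest ratio down, Ifit3b ranked 42, Ifit2 64, Ifit3 129, Rsad2 139 and Ifit1 279. The members were chosen with earlier results of these data known. Their place among all genes is therefore a description and not independent support.

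**Figure D1:**
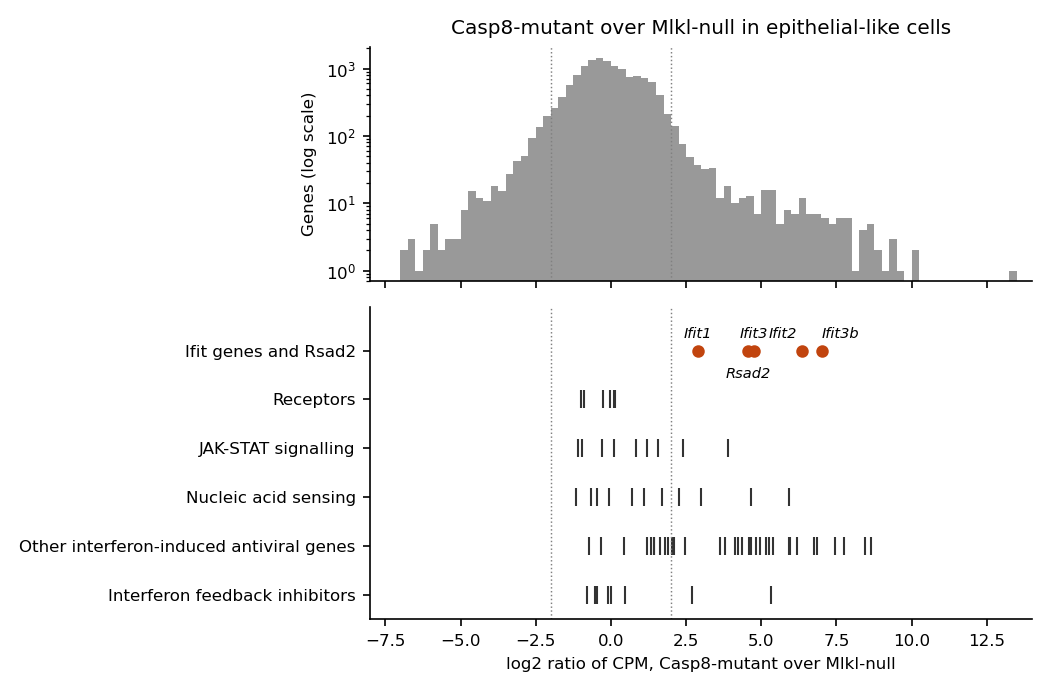
Log2 ratios of CPM, Casp8-mutant over Mlkl-null, in epithelial-like cells. The upper panel counts all 13975 genes with at least 20 UMIs on a log axis, and the lower panel marks each member (circles) and each measured gene of the interferon lists (ticks); dotted lines mark 4-fold. The members lie between 2.88 and 7.02, to the right of the bulk of genes.

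Ifit3 and Ifit3b are near-identical copies in part, and no source used here says how reads that fit both were counted, so the split between them is uncertain to that extent. Windows of 90 bases from the last 500 bases of each longest annotated transcript were sought in the whole transcript of the other gene. Of the Ifit3 windows, 27 of 411 (6.57%) were found in Ifit3b, and of the Ifit3b windows, 0 of 411 were found in Ifit3. No such window was shared between Ifit1 and Ifit2, Ifit3, Ifit1bl1 or Ifit1bl2. Reads from the transcript end of Ifit1 can therefore be told apart from those of these 4 genes.

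Ifit1 made up most of the members' transcripts in Mlkl-null epithelial-like cells. Of the members' UMIs, Ifit1 made up 1294 of 2596 (49.8%, exact Clopper-Pearson interval 47.9 to 51.8) in Casp8-mutant epithelial-like cells and 459 of 566 (81.1%, 77.6 to 84.2) in Mlkl-null cells. Ifit2 made up 7.82% (6.82 to 8.92) in Casp8-mutant and 1.06% (0.390 to 2.29) in Mlkl-null cells, and Ifit3b 6.66% (5.73 to 7.69) and 0.530% (0.109 to 1.54). These shares count transcript ends and are not scaled by length, and capture may differ between genes. The members' makeup thus differed between the libraries as well as their sum.

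Shares of cells with a UMI were compared after each cell was thinned to 2000 UMIs, with shallower cells left out. This kept 353 of 591 Casp8-mutant and 1054 of 1184 Mlkl-null epithelial-like cells. The cells left out were not an even sample. Casp8-mutant clusters 1 and 2, highest for Ifit1, had median depths of 1602 and 1909 UMIs, while cluster 3, lowest for every member, was deeper. All values at 2000 UMIs thus weigh cluster 3 more heavily than clusters 1 and 2. Ifit1 was found in 41.6% (36.4 to 47.0) of Casp8-mutant cells and 16.2% (14.05 to 18.6) of Mlkl-null cells. Rsad2 was found in 34.3% (29.3 to 39.5) of Casp8-mutant and 1.99% (1.24 to 3.03) of Mlkl-null cells. For Ifit3 the shares were 17.6% and 0.854%, for Ifit2 13.0% and 0.190%, and for Ifit3b 10.2% and 0.0949%, Casp8-mutant before Mlkl-null. Without thinning, the shares were 65.0% and 27.1% for Ifit1 and 47.4% and 3.46% for Rsad2. In other classes of the Mlkl-null library at 2000 UMIs, Ifit1 was found in 0 of 34 fibroblast-like cells, with an upper bound of 10.3%, and in 3.77% (0.460 to 12.98) of 53 myeloid-like cells. The median depths before thinning were 2379 and 2825 UMIs in those classes and 3902 UMIs in epithelial-like cells.

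Several members were often detected in the same Casp8-mutant cell. At 2000 UMIs, 53 of 353 Casp8-mutant epithelial-like cells (15.01%, 11.5 to 19.2) held UMIs of 3 or more members, against 1 of 1054 Mlkl-null cells (0.0949%, 0.00240 to 0.527). All 5 members were found in 6 Casp8-mutant cells and 1 Mlkl-null cell, and none in 38.0% of Casp8-mutant and 82.0% of Mlkl-null cells. Rsad2 was found in 47.6% of Casp8-mutant cells that held Ifit1 and in 24.8% of those that did not. Ifit2 was found in 25.9% of the cells with Ifit1 and 3.88% of the cells without it. These cells were pooled over clusters that differed in the levels of all 3 genes. Whether the genes were found together within a cluster was not tested. In Mlkl-null cells the levels were far lower. Rsad2 was found there in 4.09% of cells with Ifit1 (7 cells) and 1.59% of cells without it (14 cells). Ifit2 was found in 1 Mlkl-null cell with Ifit1, the cell with all 5 members, and in 1 without it, too few to compare.

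**Figure D2:**
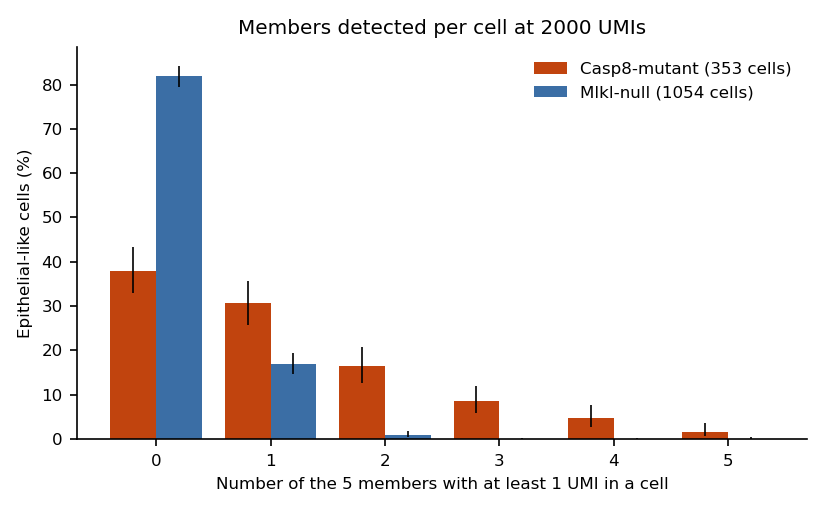
Share of epithelial-like cells (percent, with exact binomial intervals) by how many of the 5 members had at least 1 UMI after thinning to 2000 UMIs per cell. Casp8-mutant cells (353) are left of Mlkl-null cells (1054) in each pair; 3 or more members were found in 15.01% and 0.0949% of cells.

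The UMIs of single members were also counted per cell. More UMIs per cell follow from a higher level alone, so these counts do not show concentration beyond the level. An even spread over cells was not compared. At full depth, 183 of the 384 Casp8-mutant epithelial-like cells with Ifit1 held 3 or more of its UMIs, and these cells carried 78.7% of the Ifit1 UMIs, with up to 28 in a cell. In Mlkl-null cells, 30 of 321 with Ifit1 held 3 or more, which carried 23.3%, with up to 9 in a cell. A cell with Ifit1 therefore held a mean of 3.37 UMIs in the Casp8-mutant library and 1.43 in the deeper Mlkl-null library. For Rsad2, 80 of 280 Casp8-mutant cells and 3 of 41 Mlkl-null cells with the transcript held 3 or more UMIs. Ifit2 and Ifit3b, which had fewer UMIs in all, reached at most 5 and 4 UMIs in a Casp8-mutant cell and 2 and 1 in a Mlkl-null cell.

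Among Casp8-mutant epithelial-like cells the members varied together by cluster. Cluster 1, led by the small proline-rich protein genes Sprr2a3 and Sprr2b and the bile acid binding gene Fabp6, was highest for every member. Cluster 3, led by the antimicrobial gene Reg3g and the epithelial genes Gpx2 and Tff2, was lowest for every member. Ifit1 had 1953 CPM in cluster 1, 1047 in cluster 2, 119 in cluster 3 and 561 in cluster 4, which was led by goblet and Paneth cell genes such as Zg16, Muc2 and Defa24. Rsad2 had 1014, 422, 101 and 271 CPM in the same order of clusters. The highest cluster was 16.4-fold above the lowest for Ifit1, 27.1-fold for Ifit2, 7.88-fold for Ifit3, 19.1-fold for Ifit3b and 10.1-fold for Rsad2. Cells of cluster 3 were deeper, with a median of 5195 UMIs against 1602.5 in cluster 1, and CPM takes out that difference in total only.

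Mlkl-null clusters had the members' highest levels in cluster 7, led by the lipid transport genes Apoa4, Apoc2 and Cd36, except Ifit3b, which had 2 UMIs or fewer in each cluster. Ifit1 was present in all 7 Mlkl-null epithelial-like clusters, between 7.19 CPM in cluster 9 and 227 CPM in cluster 7. The Rsad2 level of cluster 7, 94.5 CPM, rested in large part on 1 cell of 3569 UMIs, which held 24 of the 49 Rsad2 UMIs, 9 of Ifit1, 6 of Ifit3, 2 of Ifit2 and 1 of Ifit3b. Cluster 7 held only 4 UMIs of Ifit2 and 12 of Ifit3, at 7.71 and 23.1 CPM, or 3.88 and 11.6 CPM without that cell. Without that cell Rsad2 had 48.5 CPM in cluster 7 and 9.03 CPM over all Mlkl-null epithelial-like cells, and its log2 ratio between the embryos was 5.14 in place of 4.56. At 2000 UMIs this was the only Mlkl-null epithelial-like cell with more than 2 of the members. All 3 Mlkl-null epithelial-like cells with 3 or more Rsad2 UMIs were in cluster 7. The other interferon-induced genes summed to 3439 CPM in those 3 cells, on 28 UMIs, against 779 CPM in the 38 cells with 1 or 2 Rsad2 UMIs and 655 CPM in the 1143 cells with none.

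**Figure D3:**
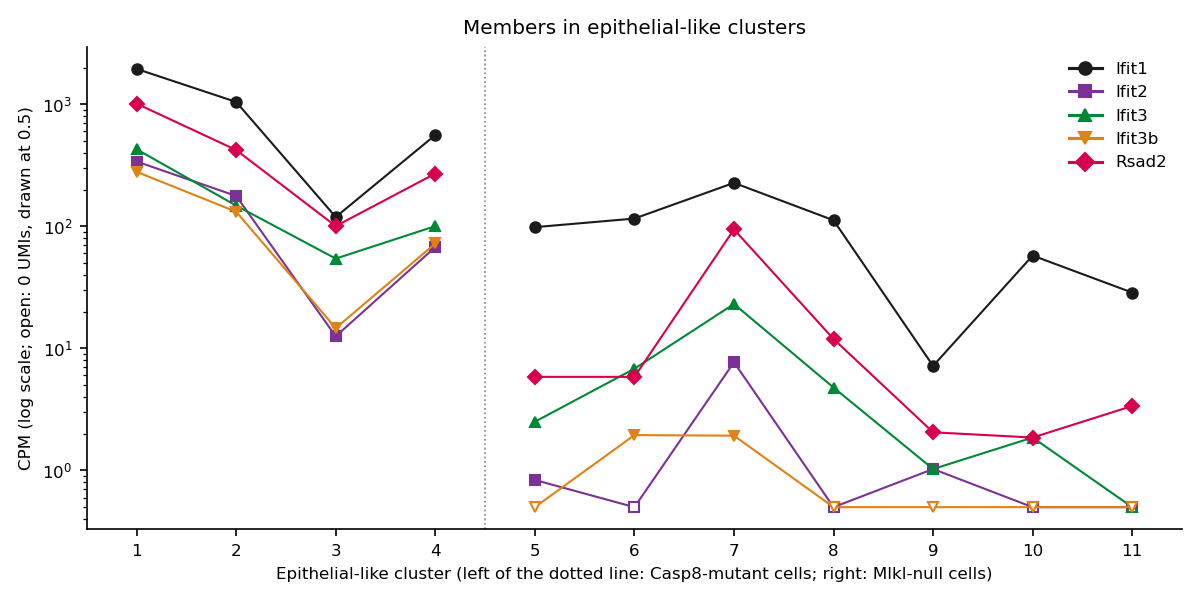
CPM of each member (log axis) in the epithelial-like clusters with at least 20 cells, Casp8-mutant cells at left and Mlkl-null cells at right; open symbols are clusters with 0 UMIs. The members share the order of clusters among Casp8-mutant cells, highest in cluster 1 and lowest in cluster 3, and Ifit1 alone exceeds 25 CPM in most Mlkl-null clusters.

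Since the libraries hardly shared clusters, each Casp8-mutant cluster was also set beside the Mlkl-null cluster most like it. Likeness was a correlation over 2000 variable genes without the interferon lists. Each gene's mean over the clusters of a library was taken out first, so differences shared by a whole library did not count. This pairing was added after the clusters were seen, and gave clusters 1 and 7 (correlation 0.77), 2 and 8 (0.28), 3 and 9 (0.83) and 4 and 11 (0.62). For cluster 2 the next best match, cluster 9 at 0.25, was nearly as close, so that pair is weakly founded. Ifit1 was higher in the Casp8-mutant cluster by 8.56-fold (7.03 to 10.6), 9.24-fold (6.88 to 12.9), 15.6-fold (7.80 to 42.2) and 19.04-fold (11.96 to 34.1) in these pairs. All 4 ratios exceeded the 7.36 over all epithelial-like cells. Rsad2 was higher by 10.6-fold (7.90 to 14.8) in the pair of clusters 1 and 7, and by 32.3-fold (14.8 to 110), 39.4-fold (13.2 to 410) and 64.5-fold (21.7 to 671) in the others. The Rsad2-rich cell described above belongs to cluster 7. Ifit2, Ifit3 and Ifit3b were likewise higher in the Casp8-mutant cluster of each pair, though on 12 or fewer UMIs in any Mlkl-null cluster.

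The neighbours of the members did not all share their direction. Ifit1bl1 had 423 UMIs in Casp8-mutant and 9 in Mlkl-null epithelial-like cells, a ratio of 116 (64.1 to 270). Cmpk2, a mitochondrial nucleotide kinase gene whose start is 12752 bp from that of Rsad2, had 197 and 20 UMIs, a ratio of 25.2 (16.2 to 43.1). Ifit1bl2 went the other way, with 104 UMIs (51.1 CPM) in Casp8-mutant and 453 UMIs (85.1 CPM) in Mlkl-null cells, a log2 ratio of −0.73. Under median scaling it was −0.67. In the cluster pairs it had no common direction, with 213 and 162 CPM in clusters 1 and 7, 67.3 and 124 CPM in clusters 2 and 8, 9.42 and 5.13 CPM in clusters 3 and 9, and 23.4 and 25.3 CPM in clusters 4 and 11. Only the interval of the weakly founded pair of clusters 2 and 8 (0.322 to 0.889) lay on 1 side of equality.

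Across the Mlkl-null clusters, Ifit1 and Ifit1bl2 had similar counted levels. The 2 genes lie on opposite strands without annotated overlap, and no source used here says whether the counting used strand, so how antisense reads enter these values is not known. Ifit1bl2 ran from 5.13 CPM in cluster 9 to 162 CPM in cluster 7, the same lowest and highest clusters as Ifit1. At 2000 UMIs, 37 Mlkl-null epithelial-like cells held both genes, 134 Ifit1 alone and 142 Ifit1bl2 alone. Ifit1bl2 was thus found in 21.6% of cells with Ifit1 and 16.1% of cells without it. In Casp8-mutant clusters the order of Ifit1bl2 was again that of Ifit1, from 9.42 CPM in cluster 3 to 213 CPM in cluster 1, but with far more Ifit1 beside it, 119 and 1953 CPM in those clusters.

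**Figure D4:**
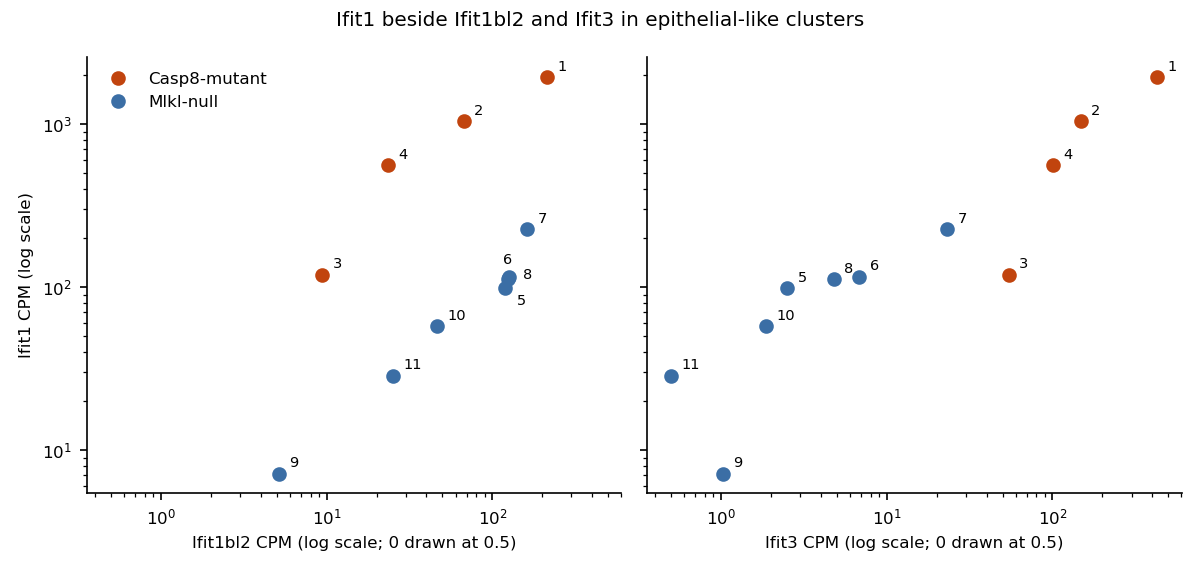
CPM of Ifit1 (vertical, log axis) against CPM of Ifit1bl2 (left panel) and Ifit3 (right panel, log axes) in the numbered epithelial-like clusters. Mlkl-null clusters have about as many CPM of Ifit1bl2 as of Ifit1, with 162 and 227 in cluster 7, while Casp8-mutant clusters lie above them.

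Of the other genes within 500 kb of the Ifit members, 9 that are no members had at least 20 UMIs. Ifit1bl1 was at least 4-fold higher in Casp8-mutant cells, Lipa (log2 ratio −2.07) and the monocarboxylate transporter gene Slc16a12 (−2.39) were at least 4-fold lower, and 6 were neither. Lipa encodes the lysosomal acid lipase and had 21 UMIs in Casp8-mutant and 236 in Mlkl-null cells. Around Rsad2, 2 genes were measured, Cmpk2 and the processed pseudogene Gm46344, which had a log2 ratio of 1.05.

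Outside the epithelium, UMIs of the members were counted in most Casp8-mutant classes, beside transcripts of other cell types. The 13 epithelial markers, none at 0 in the Casp8-mutant library, summed to 2241 CPM in Casp8-mutant and 2044 CPM in Mlkl-null fibroblast-like cells, 1188 and 1352 CPM in myeloid-like cells and 1903 and 1350 CPM in erythroid-like cells. In epithelial-like cells they summed to 9361 and 9159 CPM. The 11 granulocyte markers ran from 3071 to 5483 CPM in those Casp8-mutant classes and from 14.8 to 32.4 CPM in the Mlkl-null ones. How much of the members' UMIs came from the named cells and how much from carried-over transcripts was not tested. Ifit1 reached 773 CPM (541 to 1070) in 22 granulocyte-like cells, a class without Mlkl-null cells in which 92.3% of the epithelial markers and 90.9% of the granulocyte markers were at 25% or more of their highest cluster. Ifit1 had 343 CPM in 34 enteroendocrine-like cells, 259 in 21 lymphoid-like, 203 in 53 fibroblast-like, 200 in 25 erythroid-like and 110 in 109 myeloid-like cells. The granulocyte-like and epithelial-like intervals overlapped, and those of lymphoid-like, fibroblast-like and erythroid-like cells overlapped one another and that of enteroendocrine-like cells. In the Mlkl-null library Ifit1 had 62.2 CPM (31.1 to 111) in 41 enteroendocrine-like cells, 10.8 CPM in 61 myeloid-like cells on 2 UMIs, and 8.57 CPM in 53 fibroblast-like cells on 2 UMIs. It had 0 UMIs in the lymphoid-like, erythroid-like, enteric neuron-like, enteric glia-like and smooth muscle-like cells of that library. Enteroendocrine-like cells, which belong to the epithelial lineage, had a ratio of 5.40 (2.54 to 12.7) for Ifit1. Of the Casp8-mutant cells of this class 33 were in cluster 15 and 1 in cluster 24, and of the Mlkl-null cells 21 and 20. Cluster 15 was led by Ins1, Ins2, Nts, Sst and Gcg, which include pancreatic islet hormone genes. Cluster 24 was led by the gut hormone genes Cck, Gip and Pyy. The class thus held different mixtures of cells in the libraries, and its ratios do not compare like cells.

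The other members were less well covered outside the epithelium. In enteroendocrine-like cells Ifit3 and Rsad2 each had 9 UMIs in the Casp8-mutant library and 0 in the Mlkl-null library, at least 8.67-fold higher with the 0 set at 3 UMIs. Ifit3b had 7 UMIs against 0, at least 6.74-fold higher, and Ifit2 had 2 against 0. In granulocyte-like cells Rsad2 had 494 CPM (313 to 741), Ifit3 129 CPM (47.3 to 280), Ifit2 107 CPM (34.8 to 250) and Ifit3b 21.5 CPM (0.543 to 120), so Ifit1 and Rsad2 led there as in epithelial-like cells. Lymphoid-like cells had 9 UMIs of Ifit1 and between 1 and 4 of each other member in the Casp8-mutant library, against 0 of all 5 in 13 Mlkl-null cells. Apart from granulocyte-like cells, Rsad2 was compared over the Casp8-mutant classes with at least 20 cells. It had 322 CPM in epithelial-like, 225 in erythroid-like, 147 in enteroendocrine-like, 147 in myeloid-like, 124 in fibroblast-like and 86.3 in lymphoid-like cells. The last 5 had overlapping intervals. The epithelial-like interval (297 to 347) lay within the erythroid-like one (103 to 428).

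Fibroblast-like cells had 31 UMIs of Ifit1 in the Casp8-mutant library and 2 in the Mlkl-null library, a log2 ratio of 4.26 (2.59 to 7.67). It was the only member with 20 UMIs in this class, where 2.44% of 3112 genes were at least 4-fold higher. Rsad2 had 19 UMIs in Casp8-mutant and 0 in Mlkl-null fibroblast-like cells, at least 9.66-fold higher with the 0 set at 3 UMIs over the class. Ifit3 had 10 and 1 UMIs, a ratio of 10.7 (2.17 to 662). In this class cluster 12 gave 18 of the 31 Ifit1 UMIs and 14 of the 19 Rsad2 UMIs from 25 Casp8-mutant cells. Of the fibroblast markers 60%, but of the mesothelial markers 100%, were at 25% or more of their highest cluster in cluster 12. The name fibroblast-like is therefore uncertain for its cells. The Mlkl-null fibroblast-like cells came mostly from cluster 16, with 44 of 53. At a clustering resolution of 0.5 the class held 25 Casp8-mutant and 9 Mlkl-null cells, and Ifit3 had 5 UMIs against 1 (log2 ratio 1.15). Ifit1 had 18 against 0 there, at least 3.64-fold higher, and Rsad2 14 against 0, at least 2.83-fold higher.

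In myeloid-like cells Ifit1 had 21 UMIs in Casp8-mutant and 2 in Mlkl-null cells, a log2 ratio of 3.06 (1.31 to 6.48), where 2.55% of 2903 genes were at least 4-fold higher. Rsad2 had 28 UMIs (147 CPM) in Casp8-mutant and 10 UMIs (54.1 CPM) in Mlkl-null cells, a ratio of 2.63 (1.28 to 6.25) that is under 4-fold. The other 3 members had fewer than 20 UMIs. The Casp8-mutant cells were mostly of cluster 18 and the Mlkl-null cells mostly of cluster 25, so the class held different clusters in the 2 libraries.

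**Figure D5:**
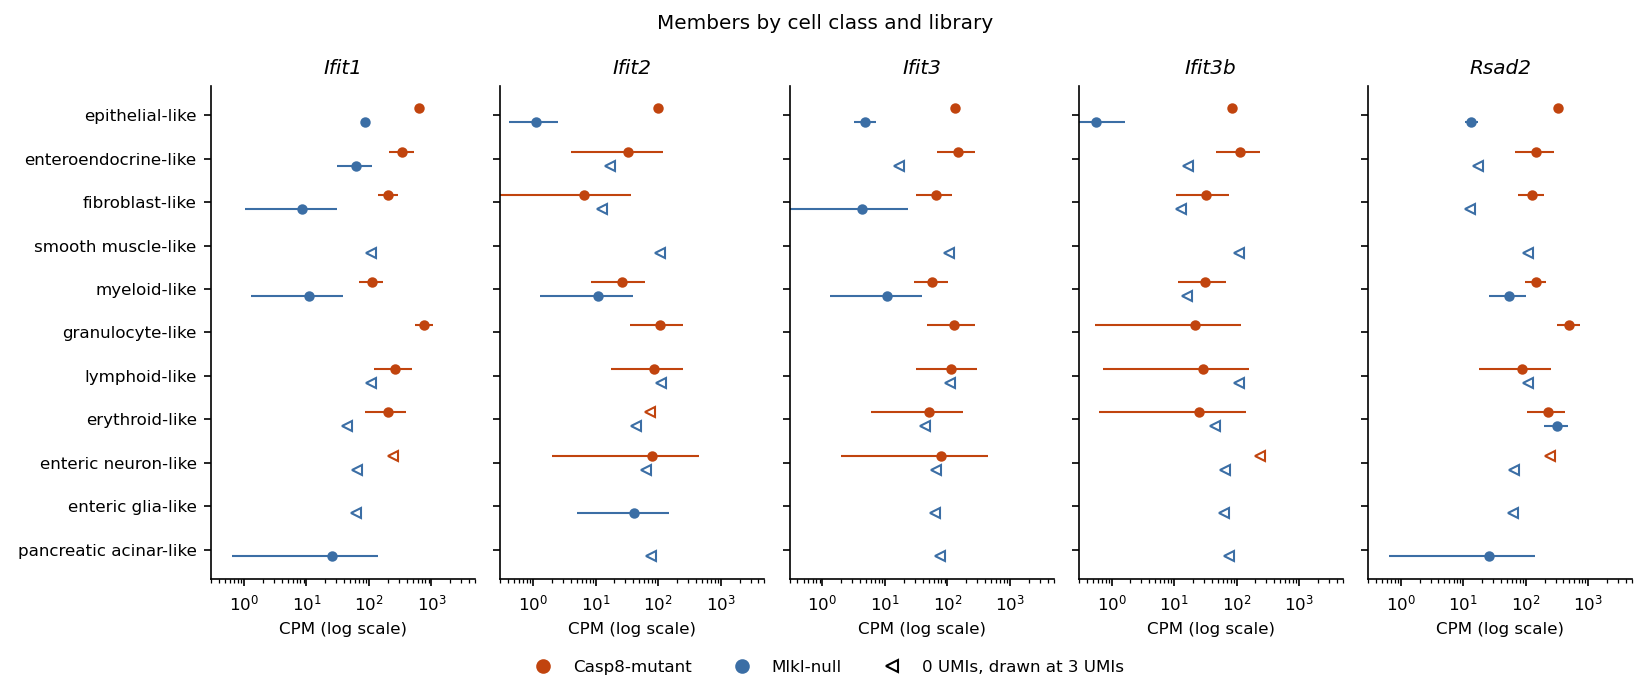
CPM of each member (log axis, exact Poisson intervals) by cell class, Casp8-mutant above Mlkl-null; open triangles are classes with 0 UMIs, drawn at 3 UMIs, and sums of under 5 cells are left out. Casp8-mutant values lie to the right in epithelial-like cells for all 5 members, and Rsad2 in erythroid-like cells has 225 CPM in the Casp8-mutant and 312 CPM in the Mlkl-null embryo, with overlapping intervals.

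Erythroid-like cells had Rsad2 in both embryos. Rsad2 had 9 UMIs in 25 Casp8-mutant cells and 21 UMIs in 19 Mlkl-null cells, 225 (103 to 428) and 312 (193 to 476) CPM, with a ratio of 0.746 (0.292 to 1.65). In the Mlkl-null cells these were in 10 of 19 cells, and all 4 Ifit members were at 0 UMIs, which 3 UMIs over the class would put at 44.5 CPM. In the Casp8-mutant cells Ifit1 had 8 UMIs in 4 cells, Ifit3 had 2 and Ifit3b 1. Rsad2 was therefore the only member found in this class of the Mlkl-null embryo.

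The pathway around the members was read in epithelial-like cells from lists of 6 kinds, also chosen with earlier results of these data known. Of 21 interferon ligand genes, 17 had no UMI, and the rest together had 4 UMIs in Casp8-mutant and 1 in Mlkl-null cells: 1 of Ifnb1, 1 of Ifnl2 and 2 of Ifnl3 against 1 of Ifnz. None could be measured, and such counts do not show that no ligand was made. Of 6 receptor genes, none was 4-fold different in either direction, with a median log2 ratio of −0.14. The type I receptor genes Ifnar1 (0.14) and Ifnar2 (0.10) had the highest log2 ratios. The type III receptor genes had the lowest, with 7.37 and 14.1 CPM for Ifnlr1 and 44.7 and 89.8 CPM for Il10rb in Casp8-mutant and Mlkl-null cells.

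Of 9 genes of JAK-STAT signalling, none was 4-fold lower, and the median log2 ratio was 0.84. Irf7, an interferon-induced transcription factor, was the highest, with 551 CPM in Casp8-mutant and 37.0 CPM in Mlkl-null cells. The kinase genes Jak1 (−0.96) and Tyk2 (−1.09) were lowest. Of 11 nucleic acid sensing genes, 4 were at least 4-fold higher and none lower, led by Zbp1, which senses Z-form nucleic acid (ratio 60.7, 36.2 to 119), and Dhx58, a partner of RNA sensors (25.3, 12.4 to 69.2). Ticam1 (log2 ratio −0.66) and Mavs (−1.15), which encode adaptors of sensing, were lowest.

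Of 34 other interferon-induced antiviral genes, 24 were at least 4-fold higher and none was 4-fold lower, with a median log2 ratio of 4.29. With 0.5 UMI added, Mx1, an antiviral GTPase gene, and Oas3, an oligoadenylate synthetase gene, came first, with 77 and 66 UMIs in Casp8-mutant cells and 0 in Mlkl-null cells. With the 0 set at 3 UMIs they were at least 67.1-fold and 57.5-fold higher, and Oas2 (ratio 217, 73.9 to 2248), Ifi44, Ifit1bl1, Isg15 and Ifi27l2a stood above both. Setting those 2 at these bounds leaves the median unchanged, since both stay above it. Lowest were Ifi27 (log2 ratio −0.34) and Ifit1bl2. Of 8 feedback inhibitors, 2 were at least 4-fold higher, the deISGylase gene Usp18 (ratio 39.8, 24.7 to 72.8) and Socs1 (6.55, 4.22 to 10.7). Irf2bp2 (−0.53) and Pias1 (−0.80) were the lowest of that list.

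The genes most like each member were sought among 11866 genes over 12 sums of a library and class with at least 20 cells, by Pearson correlation of log2(CPM + 10). These sums share the 2 libraries and differ in depth, so the values are a description. Closest to Rsad2 were Irf7 (0.95), the ubiquitin-like gene Isg15 (0.95) and Rtp4 (0.94). Closest to Ifit3 were Mx1 (0.96), the antimicrobial lectin gene Reg3b (0.96) and Gm13822 (0.95), and to Ifit3b were Gm47283 (0.95), Oas2 (0.94) and Gm13822 (0.93). Ifit1 was closest to Reg3b (0.94), Gm3841 (0.93) and Hist1h2aa (0.92). For Ifit2 the closest were Gm13445 (0.91), Gm15335 (0.86) and Nmi (0.86), an interferon-induced gene. Ifit2 had lower values with the other members (0.48 to 0.64) than those had among themselves (0.80 to 0.92). Outside Casp8-mutant epithelial-like cells Ifit2 had 6 or fewer UMIs in each sum and Ifit3b 7 or fewer, so their values rest on few UMIs. In Mlkl-null enteric glia-like cells 2 UMIs of Ifit2 made 41.6 CPM, with the other members at 0.

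Other marker levels differed between the libraries within the epithelial-like cells. The summed level of 11 granulocyte markers was 3411 CPM in Casp8-mutant cells, none of the 11 at 0, and 33.6 CPM in Mlkl-null cells, with Csf3r and Mmp8 at 0. The same list had 3967 and 32.4 CPM in myeloid-like cells. The 11 myeloid markers had 537 CPM in Casp8-mutant and 264 CPM in Mlkl-null epithelial-like cells, and the 7 erythroid markers 10457 and 3017 CPM, with no marker at 0. The 7 enterocyte markers had 9457 and 41601 CPM and the 7 goblet markers 26763 and 8480 CPM. When cells with 3 or more UMIs of myeloid or lymphoid markers were left out, 418 Casp8-mutant and 1024 Mlkl-null cells remained, and the log2 ratios were 3.46 for Ifit1, 7.51 for Ifit2, 5.51 for Ifit3, 7.79 for Ifit3b and 5.49 for Rsad2. With granulocyte markers in that rule, 13 Casp8-mutant and 993 Mlkl-null cells remained. The part of granulocyte transcripts and of cell makeup in the members' ratios was not tested.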

How the data were processed

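The deposited values were raw UMI counts per gene and barcode, made from Chromium 3' v2 libraries, per the labels' protocols. Cell Ranger 3.0.2, Seurat 3.0 and mm10 are named, per the submitters' processing notes; their roles, the barcode filter and the handling of reads that map to several genes were not given in the sources used here. Deposited matrices held 1014 Casp8-mutant and 1478 Mlkl-null barcodes; 52403 of 52636 gene identifiers matched a GENCODE M21 symbol, and 12 of the 13 sensing genes were found.

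Barcodes with under 500 genes (139 and 39) were left out, and none passed 20% mitochondrial counts. Scrublet removed 2 and 4 cells, under 0.5% of each library, so doublets can remain. Cells were clustered together with scanpy 1.11.5 and igraph 0.11.9 (Leiden, resolution 1, seed 0, 30 components, 15 neighbours) on 3325 variable genes without sex-linked genes, the members and the interferon lists. Clusters were named from fixed marker lists. A name needed at least 3 markers, and at least 40% of a list, at 25% or more of their highest cluster level. Such markers had a UMI in at least 10% of the cluster's cells. Markers among the 10 leading genes came first in choosing between classes. The naming rule and a second round of clustering were revised after the clusters were seen.

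UMIs were summed per library and class. Ratios of CPM used 0.5 added UMI, with conditional exact 95% intervals; CPM intervals were exact Poisson and shares exact Clopper-Pearson. Ratios against 0 were bounded by setting it at 3 UMIs per library. Genes needed 20 UMIs over both libraries to be measured, and 4-fold was the size called. The ratio script was tested on simulated data. Python 3.11.15, numpy 2.4.6, scipy 1.17.1, pandas 2.3.3 and matplotlib 3.10.9 were used.

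Named genes were the 5 members, the 3 genes most correlated with each, the 2 highest and 2 lowest of each list, and neighbours; 1 gene that this rule names is not reported here. The members and lists were chosen with earlier results of these data known. Motif, matched cluster pairs and 3 added alternatives were chosen after the data were seen. Alternatives covered scaling, cell filters, doublets, clustering, thinning, added UMIs, thresholds and marker-based removal of cells.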

Additional observations from a re-analysis of the deposited data

Results flagged for a closer look

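The 139 Casp8-mutant barcodes left out for having under 500 genes, 121 of them with mostly haemoglobin counts, still held transcripts of the members other than Ifit2. Ifit1 and Rsad2 were above their level in the 39 left-out Mlkl-null barcodes. Rsad2 had 92 UMIs in 55 of the Casp8-mutant barcodes, 463 CPM (373 to 568), and 13 UMIs in 6 of the Mlkl-null barcodes, 129 CPM (68.6 to 220). Over UMIs other than haemoglobin the levels were 1613 and 806 CPM, a smaller difference. Ifit1 had 24 UMIs in the Casp8-mutant barcodes, 121 CPM (77.4 to 180), and 1 UMI in the Mlkl-null barcodes, 9.92 CPM (0.251 to 55.2). Ifit3 had 9 UMIs against 0 and Ifit3b 2 against 0, each with overlapping intervals, while Ifit2 had 0 in both. Rsad2 thus exceeded Ifit1 in these barcodes in both libraries, whereas Ifit1 exceeded Rsad2 in epithelial-like cells of both.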

How the results depend on the processing

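No paired analysis was possible because each genotype had 1 embryo and the labels carry no replicate numbers. Of 302 values under alternative settings, 276 lay within the reported value's counting interval (or within 1.5 times a reported count) and 26 moved outside it. For low counts that interval is wide. No log2 ratio changed sign. For shares only the Casp8-mutant value was set against its interval, and no direction was assessed for shares or gene counts. Settings that left both libraries with 3 or fewer UMIs gave no ratio, among them all for Ifit2 in fibroblast-like cells. In epithelial-like cells all 5 members stayed at least 4-fold higher in Casp8-mutant cells under all 15 alternatives run, with log2 ratios of 2.48 to 4.14 for Ifit1, 5.49 to 8.40 for Ifit2, 4.55 to 6.45 for Ifit3, 6.19 to 8.88 for Ifit3b and 4.17 to 6.15 for Rsad2. The cause of each move was not tested. With at least 1000 genes per cell, Ifit1 was 2.48 (2.43 in all cells) and Rsad2 4.17. With cells thinned to 2000 UMIs, Ifit1 was 2.57 (2.56 in all cells) and Rsad2 4.22. Without cells holding 3 or more immune marker UMIs, only 13 Casp8-mutant cells against 993 Mlkl-null cells remained; Ifit1 was 4.14, Ifit2 8.40, Ifit3 6.45 and Rsad2 6.15, with 2748 genes at least 4-fold higher, and shares could not be computed. With granulocyte markers kept out of that rule, Ifit1 was 3.46, Ifit3 5.51 and Rsad2 5.49, and Ifit1 was found in 50% of Casp8-mutant cells, against 15.6% of Mlkl-null cells. The mean over matched cluster pairs gave 3.63 for Ifit1, and leaving out the Rsad2-rich Mlkl-null cell gave 5.14 for Rsad2. Shares of Casp8-mutant cells without thinning were 65.0% for Ifit1, 24.9% for Ifit2, 28.8% for Ifit3, 20.98% for Ifit3b and 47.4% for Rsad2, and Rsad2 was 26.7% at 1000 UMIs. The 560 genes at least 4-fold higher became 309 with a minimum of 50 UMIs, 3427 with no minimum, and 216 at 10-fold. In myeloid-like cells Rsad2 stayed under 4-fold in 10 of 11 alternatives (highest log2 ratio 2.04). In fibroblast-like cells log2 ratios ran from 3.62 to 5.96 for Ifit1, 1.15 to 4.74 for Ifit3 and 4.14 to 5.91 for Rsad2, the lowest of Ifit3 and Rsad2 at resolution 0.5. Rsad2 had no Mlkl-null UMI there in the reported setting, and neither Rsad2 nor Ifit1 had any at resolution 0.5. Those log2 ratios therefore rest on the 0.5 UMI added. With the missing count set at 3 UMIs, the bounds given above for resolution 0.5 were under 4-fold. Median scaling moved epithelial-like ratios by 0.06 (log2) and fibroblast-like ratios by −0.14. Outside the epithelium, sums of 36 UMIs or fewer per library limit all values.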
